A study of Homo sapiens with 15 samples.

Results

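The gene set described here comprised 45 genes of ribosome biogenesis and the nucleolus. They were listed by name and matched by symbol to the deposited exon and transcript tables, which hold 44786 symbols. All 45 were found, each with 1 transcript. By their known roles, 19 act in the small-subunit processome and 40S maturation, 12 in 60S assembly, 5 in box H/ACA small nucleolar ribonucleoproteins (snoRNPs) and 4 in box C/D snoRNPs. The others are the abundant nucleolar proteins NCL and NPM1, the RNA polymerase I subunits POLR1A and POLR1B, and TRMT6, a subunit of a tRNA methyltransferase. The transcripts were 554 to 12749 bases long and had 1 to 62 exons, with a median of 15.

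Ribosomes are built in the nucleolus, where RNA polymerase I makes a long precursor of ribosomal RNA. Box C/D snoRNPs methylate this precursor and box H/ACA snoRNPs convert uridines in it to pseudouridine, while the small-subunit processome and the 60S assembly factors fold it, cut it and join it to ribosomal proteins. The exon junction complex (EJC) is left by splicing just upstream of exon junctions on mRNA and is removed when ribosomes translate through it. Its core holds EIF4A3 and MAGOH, and its forms can carry CASC3 or RNPS1, which are peripheral proteins of the complex.

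EJC footprints were obtained by RIPiT-Seq, in which complexes are purified first through a FLAG tag on 1 protein and then with an antibody to another, and the RNA they shield from RNase I is sequenced. The cells were HEK293 Flp-In TRex, a human embryonic kidney line, with FLAG-MAGOH, FLAG-CASC3 or FLAG-RNPS1 stably expressed. The question of the study, by its title, was where the mutually exclusive forms of the complex bind. In 4 groups of 2 libraries, A and B, cells expressing FLAG-CASC3 or FLAG-RNPS1 were crosslinked in 0.1% formaldehyde for 10 min, EIF4A3 was the second protein, and cells had either no cycloheximide or 100 µg/ml for 3 h. Cycloheximide (CHX) stops translation elongation. In 5 native groups of 1 library each, without crosslinking or CHX, EIF4A3 was paired with MAGOH (MAGOH-EIF4A3), with CASC3 (CASC3-EIF4A3) or with RNPS1 (RNPS1-EIF4A3), and MAGOH with CASC3 (MAGOH-CASC3) or with RNPS1 (MAGOH-RNPS1). RNA-seq, in 2 libraries, used rRNA-depleted RNA from the same line without a fusion protein, crosslinking or CHX. The CASC3 and RNPS1 footprints came from different lines, so the protein and the line cannot be told apart. The RNA-seq cells had no CHX, so more RNA of a gene and more complexes per RNA cannot be told apart after CHX.

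Total transcript counts ran from 467741 to 8057700 per library. The smallest library was RNPS1 with CHX, B, which correlated with A of its group at r = 0.773 over all tested transcripts, against 0.905 to 0.971 in the other 4 replicated groups. Untreated CASC3 libraries had 794010 and 943925 counts and those with CHX 6701629 and 8057700. The count-weighted GC content was 51.7% to 53.6% in the 4 untreated crosslinked libraries, 47.3% and 48.2% in the CASC3 libraries with CHX, and 48.2% and 52.6% in those of RNPS1 with CHX. The labels do not say that A and B are separate cultures, so p-values speak of the spread between libraries, which may be technical. Levels are given as normalised read counts (CPM, the count over the library total), and CPM values and fold changes are shares of a library, not absolute amounts.

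4 exons that serve below as examples of the changes along a transcript, chosen after their values were seen, are shown first, from the GENCODE v29 transcripts on hg38, whose exons matched those of all 45 members. Each is printed 5′ to 3′ on the strand of its gene, and the capitals mark bases 20 to 24 upstream of the exon's 3′ end, where the EJC is deposited. All are internal coding exons. NCL exon 10 lies at chr2:231457001-231457124 (minus strand, 124 bases, 37.9% GC) and NOL11 exon 17 at chr17:67743479-67743586 (plus strand, 108 bases, 34.3% GC), and both had few counts in the crosslinked CASC3 libraries without CHX and many in those with it. FBL exon 2 lies at chr19:39840617-39840787 (minus strand, 171 bases, 70.8% GC), encodes part of the glycine- and arginine-rich region of fibrillarin, and showed the opposite in the same libraries. NOP56 exon 10 lies at chr20:2656774-2656895 (plus strand, 122 bases, 48.4% GC) and was among the 3 exons of NOP56 with the highest counts in untreated CASC3 footprints.
NCL exon 10: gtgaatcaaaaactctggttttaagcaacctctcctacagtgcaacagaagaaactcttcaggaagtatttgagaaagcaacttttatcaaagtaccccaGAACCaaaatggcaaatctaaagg
NOL11 exon 17: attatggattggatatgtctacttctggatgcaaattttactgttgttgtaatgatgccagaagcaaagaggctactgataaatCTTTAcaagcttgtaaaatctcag
FBL exon 2: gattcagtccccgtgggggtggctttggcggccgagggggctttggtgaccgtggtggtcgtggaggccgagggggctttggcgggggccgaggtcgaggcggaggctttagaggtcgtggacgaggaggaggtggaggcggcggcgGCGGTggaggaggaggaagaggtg
NOP56 exon 10: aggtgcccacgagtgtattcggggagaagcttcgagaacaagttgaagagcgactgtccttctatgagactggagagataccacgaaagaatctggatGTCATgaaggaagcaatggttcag

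The 45 genes took a larger share of every footprint library than of RNA-seq. In RNA-seq they held 0.332% and 0.321% of transcript counts. In the untreated crosslinked libraries they held 0.742% and 0.609% for CASC3 and 0.663% and 0.565% for RNPS1. CASC3 with CHX reached 1.42% and 1.53%, and RNPS1 with CHX 0.836% and 0.740%, so the 2 CASC3 libraries with CHX stood above the other 13. The native libraries lay between 0.582% (MAGOH-RNPS1, 95% Wilson interval 0.574% to 0.590%) and 0.798% (CASC3-EIF4A3, 0.780% to 0.816%), where the intervals cover counting error only. The other 112 ribosome biogenesis genes of a second list held 0.547% and 0.517% of RNA-seq, 0.872% to 1.19% of the untreated crosslinked libraries, and 1.80% and 1.92% of the CASC3 libraries with CHX.

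**Figure D1:**
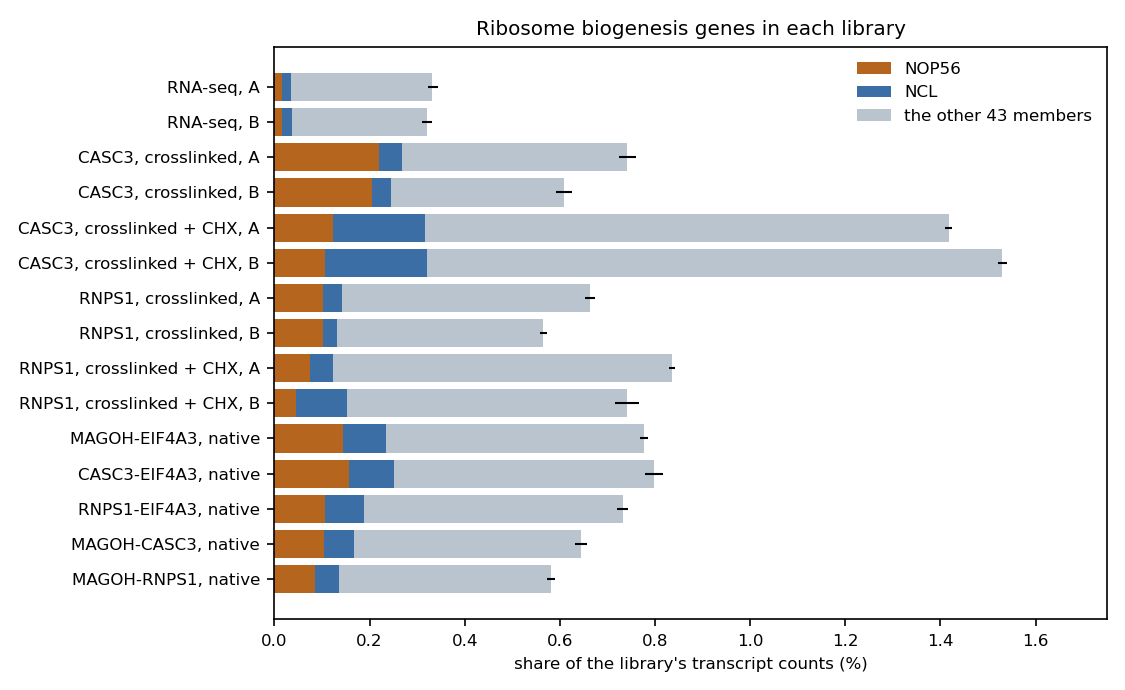
Share of each library's transcript counts (%, x axis) held by the 45 genes, by library (y axis), with NOP56 and NCL set apart and a 95% Wilson interval on the total. The RNA-seq bars reach 0.332% and 0.321%, and the CASC3 bars with cycloheximide (CHX) 1.42% and 1.53%.

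One gene weighed heavily in the untreated footprints. NOP56, a core protein of box C/D snoRNPs whose introns hold snoRNA genes, took 29.6% and 33.6% of the members' counts in the CASC3 libraries and 15.4% and 17.9% in those of RNPS1, against 4.71% and 4.77% in RNA-seq. Without it the members' share was 0.522% and 0.404% in the CASC3 libraries and 0.316% and 0.305% in RNA-seq, so the footprint libraries still stood higher. NCL, nucleolin, an abundant RNA-binding protein of the nucleolus, took 6.63% and 6.70% of member counts in CASC3 without CHX and 13.7% and 14.1% with it.

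Per kilobase of transcript, the RNA-seq levels of the members spanned a wide range. NPM1, the histone and ribosome chaperone nucleophosmin, stood highest at 257.4 CPM per kilobase, followed by FBL, the methyltransferase of box C/D snoRNPs, at 239.9. NOP56 followed at 64.4 and RRP9, a protein of the U3 snoRNP, stood lowest at 2.72 CPM per kilobase. In the CASC3 footprints without CHX the order was another, with NOP56 at 883.1, FBL at 367.5 and NPM1 at 129.9 CPM per kilobase. NPM1 has many processed pseudogenes, and how reads were counted is not given, so its counts are uncertain. The first exon of its listed transcript had 0 counts in all 15 libraries.

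Footprints were set against RNA-seq to compare the complexes with the level of the RNA. Of the 44 members that passed the filter on low counts, 19 were higher and 5 lower in CASC3 footprints by edgeR's quasi-likelihood test with a Benjamini-Hochberg adjusted p under 0.05. Of all 12379 transcripts tested, 51.1% were called, 27% higher and 24.1% lower. In RNPS1 footprints 22 of the 44 were higher and 5 lower, where 61.7% of all were called, 32.1% higher and 29.6% lower. The median log2 fold change of the members was 0.70 in each comparison, and that of all transcripts 0.06 and 0.08. Both comparisons use the same RNA-seq libraries, and NMD3, a 60S export adaptor, did not pass the filter. The transcript listed for NMD3 has 589 bases and 6 exons, and its coding region runs to its 3′ end. Its counts, here and below, may therefore not stand for the whole gene. Without CASC3 library A the members' median in CASC3 was 0.17. Without RNA-seq A the members' medians were 0.68 in CASC3 and 0.66 in RNPS1, against 0.07 and 0.10 over all transcripts. Without RNA-seq B they were 0.46 and 0.75, against 0.08 and 0.10. In both cases fewer members and fewer transcripts at large were called.

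In the box C/D group, NOP56 had 156.3 and 152.9 CPM in RNA-seq, 2196 and 2043 in the CASC3 footprints and 1021 and 1010 in those of RNPS1. The 3 groups did not overlap. Its log2 fold change over RNA-seq was 3.87 ± 0.37 (SE, adjusted p = 0.000137) in CASC3, at the percentile 99.5 of all transcripts, and 2.60 ± 0.35 (adjusted p = 0.000153) in RNPS1. NOP58, its partner in the same particles, was higher by 1.34 ± 0.26 and 1.26 ± 0.25, both called. FBL had 285.4 and 271.2 CPM in RNA-seq, 293.5 and 559.2 in CASC3 and 196.4 and 205.4 in RNPS1. The call was not made for FBL in either (log2 fold changes of 0.77 and -0.58).

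Among 60S assembly factors, BOP1 and PES1 of the PeBoW complex, the rRNA methyltransferase NOP2 and the pre-60S factor RRP1 were higher in both kinds of footprint. BOP1 had 35.8 and 30.4 CPM in RNA-seq, 145.1 and 85.6 in CASC3 and 200.7 and 251.0 in RNPS1, which gave log2 fold changes of 1.86 ± 0.30 and 2.67 ± 0.29. Those of RRP1 were 1.65 and 2.65, those of NOP2 1.69 and 2.29, and those of PES1 1.65 and 0.87. NOL8, a nucleolar protein of pre-rRNA processing, was higher by 1.31 in CASC3. In the small-subunit group, NOL6 had 29.7 and 22.8 CPM in RNA-seq against 112.3 and 75.6 in CASC3 and 121.2 and 133.9 in RNPS1, with log2 fold changes of 1.91 ± 0.28 and 2.18 ± 0.26. NOP14, LTV1 and the GTPase BMS1 were higher by 1.20, 1.46 and 1.24 in CASC3. RRP9 and UTP6 were higher by 2.49 and 1.57 in RNPS1. DKC1, the pseudouridine synthase of box H/ACA particles, was higher in both, by 1.45 and 1.36, and NCL by 1.23 ± 0.26 and 0.70 ± 0.26.

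The members called lower are named here, some of them after their values were seen, and included 2 of the 5 box H/ACA genes in each comparison. NOP10, a small protein of box H/ACA particles with 2 exons, had 16.6 and 18.6 CPM in RNA-seq, 4.2 and 1.3 in CASC3 and 3.0 and 2.2 in RNPS1. Its log2 fold change was -2.54 ± 0.57 in CASC3 and -2.88 ± 0.45 in RNPS1. Its partner NHP2, with 4 exons, was lower by -1.04 and -1.45, NPM1 by -0.91 ± 0.28 and -1.24 ± 0.28, and the processome factor DNTTIP2 by -1.25 and -1.43. WDR36 was called lower in CASC3 at -0.88. UTP3, a processome protein encoded without introns, had 20.1 and 22.8 CPM in RNA-seq, 8.5 and 11.3 in CASC3 and 7.2 and 4.3 in RNPS1, and was called in RNPS1 at -2.04 ± 0.40 but not in CASC3 at -1.04 ± 0.45. RRS1, a 60S assembly factor and the other member with 1 exon, was not called (-0.18 and -0.93).

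The number of exons went along with these values over all transcripts (Pearson r = 0.36 and Spearman rho = 0.46 in CASC3) and less closely over the 44 members (r = 0.22 and rho = 0.28), a difference that was not tested. Among all tested transcripts the median log2 fold change in CASC3 was -1.84 with 1 exon, -1.17 with 2, -0.45 with 3 to 9, 0.41 with 10 to 19 and 0.87 with 20 or more. The members' medians were -0.61 (2 members) with 1 exon, -2.54 (NOP10 alone) with 2, 0.77 (5 members) with 3 to 9 and 0.79 (26 members) with 10 to 19. With 20 or more exons the median over 10 members was 0.69. In RNPS1 the medians of all transcripts ran from -2.61 with 1 exon to 0.83 with 20 or more, and the 10 members with 20 or more exons had 0.82. GC content also went along with the fold change over the 44 members (Pearson r = 0.49 and Spearman rho = 0.54 in CASC3), and its part in these values was not tested.

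**Figure D2:**
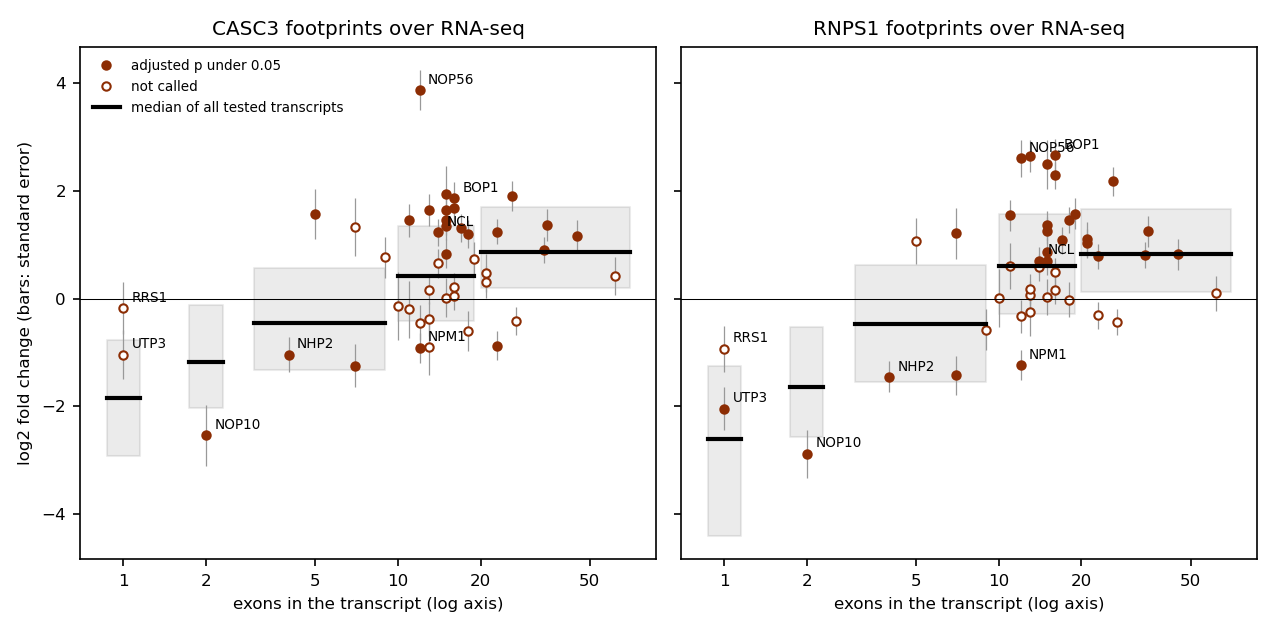
Log2 fold change of footprints over RNA-seq (y axis, bars are standard errors) against the number of exons (x axis, log scale) for the 44 members tested, for CASC3 (left) and RNPS1 (right), with the median and the middle 50% of all tested transcripts by exon class in black and grey. NOP56 stands highest in CASC3 at 3.87, and NOP10 with 2 exons lowest at -2.54 and -2.88.

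Last exons have no junction downstream, and they held less of the members' footprints than of their RNA-seq counts. Over the 43 members with more than 1 exon, last exons took 28.32% and 29.01% of RNA-seq counts. In the 8 crosslinked libraries they took 9.73% to 19.3%, with no overlap. The means were 13.9% ± 3.6 (SD, n = 8) and 28.7% ± 0.49 (SD, n = 2), a difference of -14.8 percentage points (two-sided exact permutation test, p = 0.0444, the smallest this design allows). The 8 libraries pool 4 groups that differ in protein and CHX, so this SD and p do not measure the spread between replicates. For the 4 untreated libraries alone the difference was -16.1 points (exact permutation test, p = 0.133, again the smallest possible). In 40 of the 43 members the mean share over the crosslinked libraries was below that in RNA-seq. The 5 native libraries gave 10.9% to 16.3%. Over all transcripts with more than 1 exon the drop was larger, from 44.3% and 45.2% in RNA-seq to between 12.1% and 22.5% in the crosslinked libraries, so it is not particular to these genes.

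Between CASC3 and RNPS1 footprints without CHX, 0 of the 45 members were called by edgeR, 3 had an unadjusted p under 0.05, and DESeq2 also called 0. Of all 14297 transcripts, 0.56% were called by edgeR, 0.553% higher and 0.00699% lower, and 1638 had an unadjusted p under 0.05. DESeq2 called 268 of the 12079 transcripts it tested. The members' median log2 difference was 0.03 and that of all transcripts -0.09. The 3 members with the smallest p, named for that, were FBL (log2 difference 1.28 ± 0.47, adjusted p = 0.312, and 0.57 without CASC3 B), NOP56 (1.22 ± 0.48, adjusted p = 0.357) and RRP1 (-1.05 ± 0.44, adjusted p = 0.383). RRP1 had 201.3 and 146.1 CPM in CASC3 against 333.3 and 449.8 in RNPS1. The differences were 0.47 for NCL, 0.28 for NPM1, 0.71 for RRS1 and 0.96 for UTP3, with standard errors of 0.44 to 0.67. Of the 112 other biogenesis genes 0 were called here, 9 with an unadjusted p under 0.05.

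The native libraries allow the same contrast without crosslinking, as a description with 1 library a group. Log2 ratios of CPM, with a prior of 2 counts, were centred on the median of all tested transcripts. For CASC3-EIF4A3 over RNPS1-EIF4A3, 28 of 45 members were above 0 with a median of 0.14, where 49.9% of all transcripts were above 0. Of the members with at least 50 counts in each library, NOP56 (1570 against 1061 CPM), PES1 (132.5 against 91.4) and BMS1 (273.6 against 199.7) had the highest ratios, 0.68, 0.65 and 0.57. HEATR1, NOP58 and WDR75 had the lowest, -0.55, -0.49 and -0.49. For MAGOH-CASC3 over MAGOH-RNPS1, which come from a single line, 27 of 45 were above 0 with a median of 0.05, where 50% of all were. DNTTIP2 (0.94), NPM1 (0.75) and NOLC1 (0.67) had the highest ratios there and NOP2 (-0.42), WDR36 (-0.35) and NOL6 (-0.23) the lowest. NCL stood at 0.33 and 0.43 in the 2 pairs and FBL at 0.47 and 0.14. UTP3 and RRS1 had under 50 counts in each of these 4 libraries, with ratios of 1.34 and 0.99 in the EIF4A3 pair and 0.87 and 0.56 in the MAGOH pair.

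CHX for 3 h was followed by a higher share of most of these genes in CASC3 footprints. Of the 45 members 29 rose and 0 fell, where 16% of all 14297 transcripts rose and 15.8% fell, 31.8% in all. The members' median log2 fold change was 1.68, against 0.06 over all transcripts. Of the 112 other ribosome biogenesis genes 59 rose and 4 fell, with a median of 1.41. With the 8 libraries thinned at random to the smallest total, a setting chosen after the data were seen, 22 of the 42 members tested rose and 0 fell, with a median of 1.58. Of all 9517 transcripts then tested 1019 rose and 1349 fell. The count of 29 rests on single libraries. It fell without any 1 of the 4 CASC3 libraries, and so did the number called over all transcripts. The members' median stayed between 1.45 and 1.98 whichever of the 8 libraries was left out, against -0.03 to 0.15 over all transcripts.

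The rise was broadest in the small-subunit processome and 40S maturation, where 17 of 19 members rose, with a median of 2.22. Most transcripts of this group had under 45% GC, and low GC content itself went along with the rise, as described below. DNTTIP2 had 27.5 and 16.4 CPM without CHX and 318.2 and 250.2 with it (log2 fold change 3.90 ± 0.52, adjusted p = 0.00128). NOL11, of the processome subcomplex that joins pre-rRNA transcription and processing, went from 49.8 and 25.2 CPM to 483.8 and 418.9 (3.81 ± 0.75, adjusted p = 0.00391). In both, each CHX library stood far above each untreated one. LTV1, a 40S maturation factor, rose by 3.17 ± 0.52, WDR3 by 2.78 ± 0.48, UTP20 by 2.77 ± 0.57, WDR75 by 2.50 ± 0.52, NOP14 by 2.26 ± 0.47 and UTP18 by 1.97 ± 0.42. HEATR1, the largest subunit of the same subcomplex as NOL11, had 508.5 and 352.6 CPM without CHX and 1100 and 1480 with it. The 2 members of this group not called were RRP9 (1.41 ± 0.56) and the intronless UTP3, which had 8.5 and 11.3 CPM without and 6.3 and 3.7 with CHX (-0.79 ± 0.59).

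In the other groups fewer members rose. Of the 60S assembly factors 6 of 12 did, with a group median of 1.18. Among them the GTPase GNL2 had 83.7 and 57.9 CPM without CHX and 329.6 and 366.9 with it (2.52 ± 0.45, adjusted p = 0.00268). BOP1 stood at -0.11 and RRS1, with 9.5 and 11.3 CPM before and 7.8 and 6.9 after, at -0.31 ± 0.65. Of the box C/D proteins NUFIP1, which helps to assemble these particles, rose from 21.2 and 3.8 CPM to 185.9 and 134.9 (3.89 ± 0.61, adjusted p = 0.00181), and NOP58 by 1.41. FBL and NOP56 had log2 fold changes of -0.73 ± 0.47 and -0.70 ± 0.48 and were not called. In the box H/ACA group NOLC1, a nucleolar chaperone of snoRNPs, rose and the other 4 members did not pass.

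Among the remaining genes, TRMT6 went from 11.6 and 3.8 CPM to 115.3 and 134.6, a log2 fold change of 4.23 ± 0.58 (adjusted p = 0.00128), at the percentile 99.7 of all transcripts. It rests on 11 and 3 counts without CHX, and it was 5.16 without CASC3 A, as the values of UTP20, WDR75 and POLR1B were 3.49, 3.23 and 3.72. NUFIP1, with 20 and 3 counts without CHX, stood at 5.49 without CASC3 A and 3.27 without B, and UTP20 at 2.13 without CASC3 with CHX B, where it was not called. NCL went from 491.6 and 408.1 CPM to 1948 and 2154 (2.40 ± 0.52, adjusted p = 0.00564). POLR1B rose by 2.85 ± 0.61, while POLR1A, the largest subunit of RNA polymerase I, stood at 0.94. NPM1 had 200.2 and 147.4 CPM without CHX and 366.1 and 237.7 with it (0.99 ± 0.44, adjusted p = 0.0973).

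**Figure D3:**
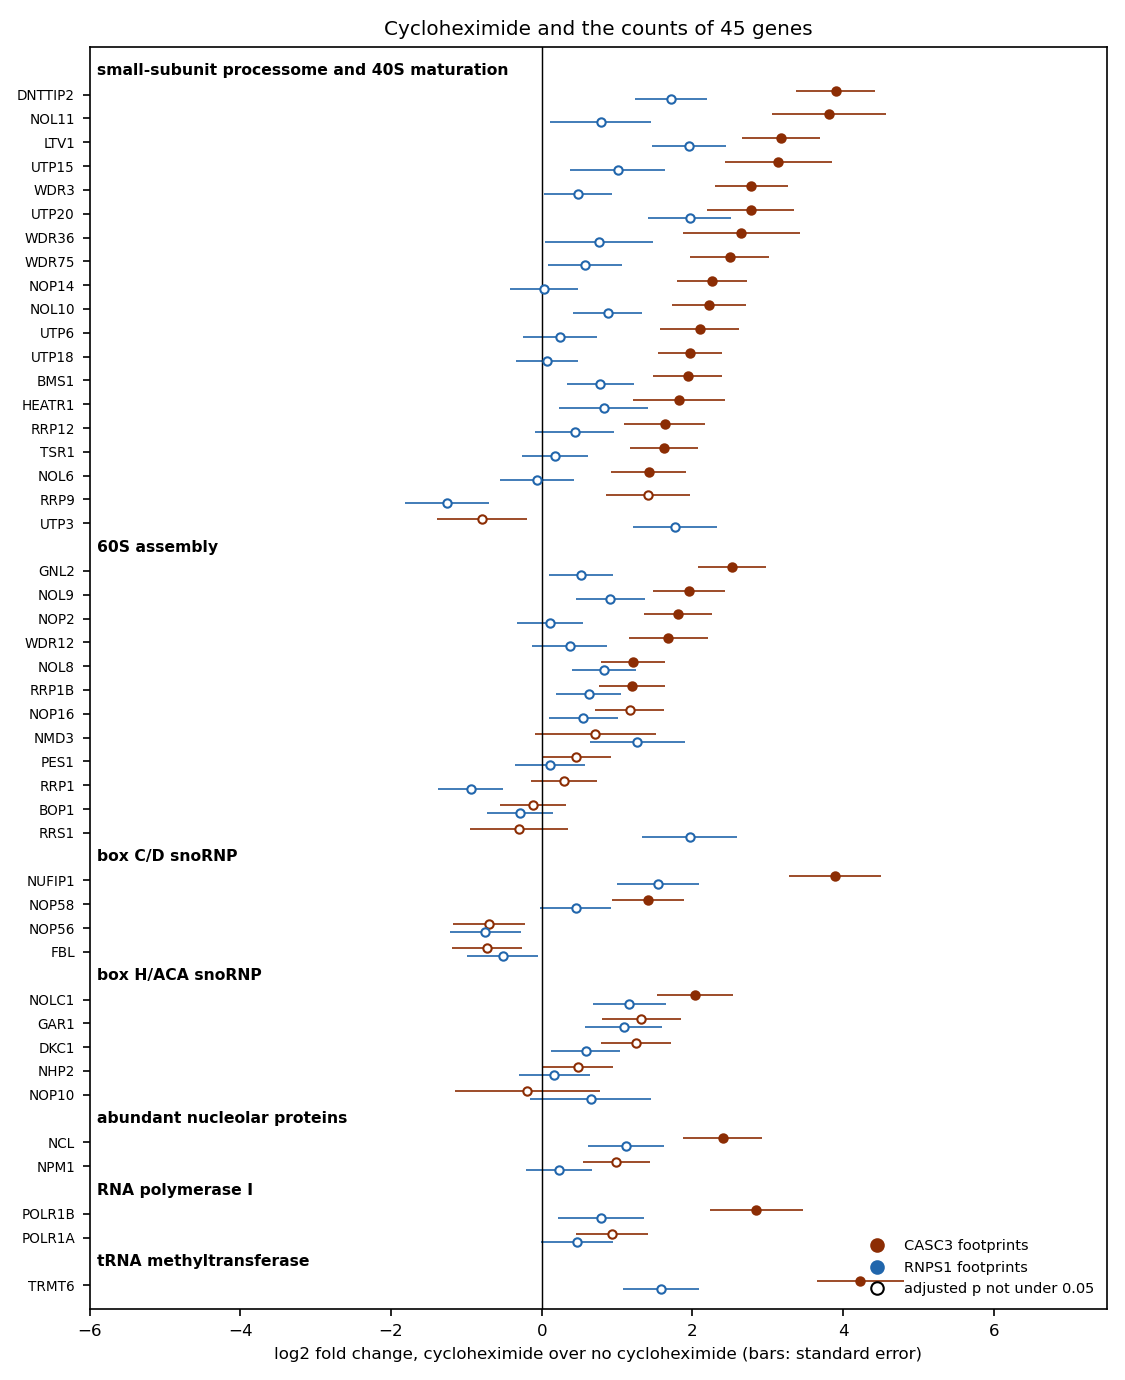
Log2 fold change with cycloheximide (x axis, bars are standard errors) of each of the 45 genes (y axis, grouped by role) in CASC3 and RNPS1 footprints. Filled points have an adjusted p under 0.05. In CASC3 29 genes are filled, 17 of them in the small-subunit group, and in RNPS1 0 are filled.

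GC content went along with the CHX values. The members' transcripts had 37.3% to 65.2% GC with a median of 47.1%, and GC and the log2 fold change correlated over the 45 members at Pearson r = -0.64 (Spearman rho = -0.65) and over all transcripts at -0.56. Below 45% GC, 17 of 19 members rose, against 31.7% of all transcripts in that band. At 45% to 55% it was 9 of 15 against 14.7%, and at 55% and over 3 of 11 against 1.85%. The members' medians in these bands were 2.50, 1.63 and 0.46 and those of all transcripts 1.02, 0.20 and -1.19. Most small-subunit members lay below 45% GC, though NOL6, RRP12 and RRP9 had 57.9% to 60.9%. Of the 60S assembly factors only NOL8 and WDR12 lay below 45%, and BOP1 and RRP1 had 65.2% and 60.7%. Role group and GC content thus went together in part. The part of GC content in the rise was not tested beyond these bands, nor within the role groups.

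In RNPS1 footprints CHX called 0 of the 45 members, where 0.021% of all transcripts were called. By unadjusted p under 0.05 it was 11 members with edgeR, and 1890 of all 14297 transcripts. DESeq2 called 2 members, and 125 of the 9307 transcripts it tested. The members' median was 0.59, against 0.08 over all transcripts. The 2 CHX libraries of RNPS1 disagreed for several genes. NOL11 had 90.6 and 41.0 CPM without CHX and 185.7 and 21.4 with it, and NCL 408.6 and 314.9 without and 472.9 and 1075 with it. LTV1 (1.95 ± 0.49), RRS1 (1.96 ± 0.63) and UTP20 (1.96 ± 0.55) had the highest values. UTP3 stood at 1.77 ± 0.56, with 7.2 and 4.3 CPM without and 19.03 and 19.24 with CHX, NCL at 1.11 ± 0.50, NPM1 at 0.23 ± 0.44 and FBL at -0.52 ± 0.47. Without RNPS1 with CHX A the members' median was 0.28, against -0.18 over all transcripts, and without B it was 0.66 against 0.0008.

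The difference between the 2 CHX effects was tested as an interaction, and edgeR called 0 of the 45 members and 0% of all transcripts. The members' median difference was 1.19, against 0.02 over all transcripts. An unadjusted p under 0.05 was found for 17 members and for 2506 of all 14297 transcripts. DESeq2 called 2 members, and 378 of the 12911 transcripts it tested. The larger rise in CASC3 was therefore not shown to differ from RNPS1 for any 1 member by edgeR's test. The interaction was 1.29 ± 0.71 for NCL, 0.76 ± 0.62 for NPM1 and -0.21 ± 0.66 for FBL. It was -2.27 ± 0.90 for RRS1 and -2.56 ± 0.82 for UTP3, the members with 1 exon. Both rest on few counts: RRS1 had 9 and 9 and UTP3 8 and 9 in the untreated CASC3 libraries. With 1 library left out the interaction ran from -3.02 to -1.29 for RRS1 and from -2.88 to -2.15 for UTP3. Without RNPS1 with CHX A the members' median interaction was 1.28, against 0.30 over all transcripts, and without B 1.25 against 0.06.

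With CHX in both, 13 members were higher in CASC3 than in RNPS1 footprints and 0 lower, where 14.1% of all transcripts were called, 6.42% higher and 7.69% lower. The members' median was 1.08, against -0.07 over all transcripts. Of the 13, 8 belong to the small-subunit group. They include NOL11 (483.8 and 418.9 against 185.7 and 21.4 CPM, log2 difference 2.38 ± 0.69, adjusted p = 0.0360), DNTTIP2 (318.2 and 250.2 against 76.3 and 68.4, 2.30 ± 0.47, adjusted p = 0.0134) and WDR3 (2.28 ± 0.47). RRP9 (2.07), UTP18 (1.92), NOP14 (1.92), BMS1 (1.57) and TSR1 (1.54) make up the rest of that group. The others were NUFIP1 (2.12), POLR1B (1.98), TRMT6 (1.78), NCL (1.76 ± 0.51, adjusted p = 0.0363) and GNL2 (1.495). NPM1 (1.03) and FBL (1.08) were not called, and RRS1 and UTP3 stood at -1.56 ± 0.60 and -1.60 ± 0.54. The call is not robust, and the number of members called changed with the library left out. With only the 4 libraries compared 0 members were called, and 0 of all 14290 transcripts. At equal depth 5 of 42 members were called, and 926 of all 9517 transcripts. With 1 library left out the members' median ran from 0.96 to 1.32, and that of all transcripts from -0.15 to 0.21. The 2 RNPS1 libraries with CHX also moved single values: without A, NOL11 stood at 4.76, WDR3 at 2.89, RRP9 at 2.85 and RRS1 at -2.31 (called), and without B, NOL11 stood at 1.72, NCL at 2.58 and RRS1 at -0.55. RRP9 was at 1.46 and not called without CASC3 with CHX B.

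Counts per exon showed where the members' CASC3 footprints changed with CHX. This comparison was chosen after the data were seen. Of the 674 member exons tested 159 rose and 11 fell, where 7.22% of all 104449 exons rose and 11.3% fell, 18.5% in all. The scaling sets this balance: with DESeq2 size factors 13225 of all exons rose and 8603 fell, against 7540 and 11797, the median of all exons was 0.65 instead of 0.20, and 237 member exons rose and 10 fell, with a median of 2.14 instead of 1.68. An exon could also pass the filter on low counts through the deeper CASC3 libraries with CHX alone. Of the 114 member exons that averaged at least 10 counts in every group, 12 rose and 2 fell, with a median of 1.36. Of all 16719 such exons 288 rose and 566 fell, with a median of -0.05. Of the 674 exons tested, the 11 that fell lay at the start of 7 transcripts: FBL exons 1 to 3, NOP56 and DKC1 exons 1 and 2, NPM1 exon 2, and the first exons of NOL8, RRP1 and BOP1. First exons of the members had a median GC content of 62.75%, against 45.93% for internal exons. The part of GC content in this fall was not tested. No first exon rose, 6 of the 35 tested fell, and their median log2 fold change was -1.19, where 51% of all first exons fell and 0.174% rose, with a median of -2.86. Of the 42 last exons 18 rose and 0 fell, with a median of 2.31, where 7.21% of all last exons rose and 4.46% fell, with a median of 0.58. First exons held 5.3% of the members' counts in each untreated CASC3 library and 0.89% and 0.58% with CHX, while in RNPS1 they held 7.4% and 6.9% without and 4.0% and 9.0% with CHX. Over all transcripts with more than 1 exon, first exons held 11.7% and 14.8% in untreated CASC3 and 2.29% and 2.14% with CHX, the same direction.

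Each transcript with at least 6 exons was divided into 5′, middle and 3′ tertiles of its exons. With CHX in CASC3, 16 of 205 exons of the 5′ tertile rose and 11 fell, 44 of 231 of the middle rose and 0 fell, and 98 of 226 of the 3′ tertile rose and 0 fell. Of all exons in these tertiles 1.29%, 5.41% and 14.8% rose and 20.1%, 7.46% and 5.01% fell. The members' medians were 0.79, 1.64 and 2.41. Over all transcripts of that size they were -0.80, 0.42 and 1.00, so the order from 5′ to 3′ was shared by the transcriptome and the members stood higher in each tertile. The members' order held in each band of exon GC content, with medians of 2.13, 2.32 and 3.01 below 40% GC and -0.85, 0.14 and 0.52 at 60% and over. The calls also went along with GC content. Of the 11 exons that fell, 7 had 60% GC or more and 3 had 50% to 60%. At 60% and over 0 exons rose in any tertile. In CASC3 over RNPS1 without CHX the same tertiles had medians of -0.66, -0.38 and 0.26, against -0.47, -0.28 and 0.20 over all exons, with 0 member exons called. For CHX, 12, 11 and 11 exons of the 3 tertiles had no count in 1 of the groups compared. Held at a floor of 3 counts over the group, these left medians of 0.76, 1.58 and 2.37. The tertiles hold all exons that passed the filter on low counts. They were not repeated at equal depth or on the better covered exons alone.

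**Figure D4:**
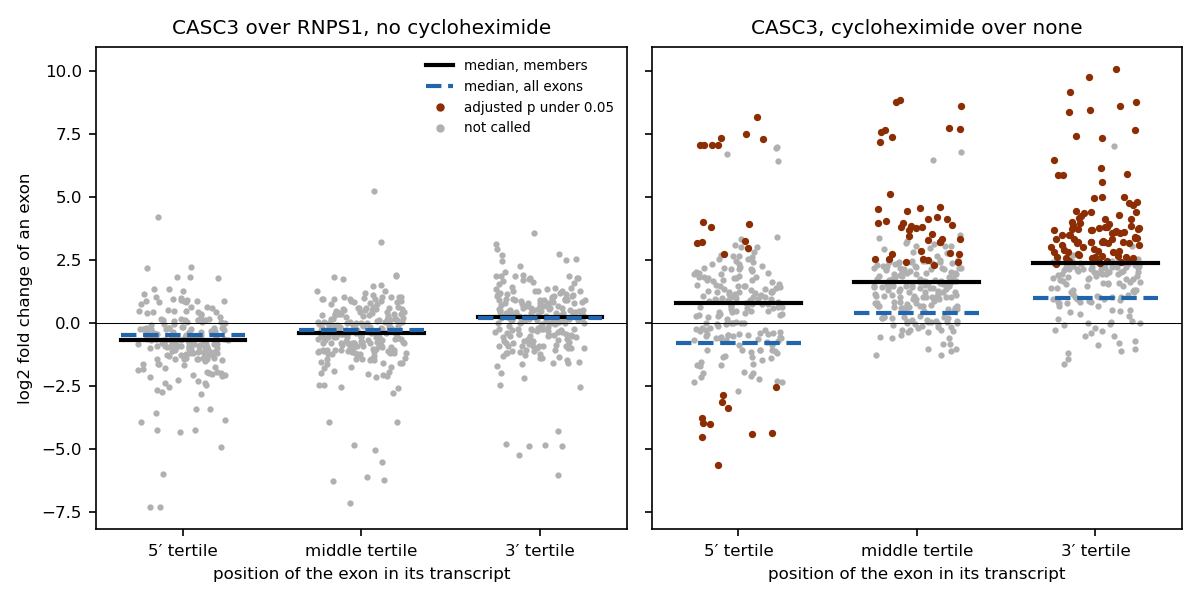
Log2 fold change of each member exon (y axis) by its position in transcripts with at least 6 exons (x axis), for CASC3 over RNPS1 without cycloheximide (left) and for cycloheximide in CASC3 (right). Black lines are the members' medians, 0.79, 1.64 and 2.41 on the right, and dashed blue lines the medians of all exons, -0.80, 0.42 and 1.00. Fitted values of exons without counts in a group are not bounds.

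The calls of single exons depend on single libraries. The 170 calls became fewer without any 1 of the CASC3 or untreated RNPS1 libraries, and more without either RNPS1 library with CHX. The calls over all exons moved the same way. With 1 library left out the members' median ran from 1.52 to 2.15, against 0.12 to 0.65 over all exons. Of exons that averaged at least 10 counts in every group, 14 of 114 member exons were called, and 854 of all 16719. A test of exon use within a transcript, diffSpliceDGE with the Simes method, called 18 of 41 members, where 35.4% of all 10717 transcripts were called. Its calls, too, became fewer without any 1 of the CASC3 or untreated RNPS1 libraries and more without either RNPS1 library with CHX. This held for the members and for all transcripts alike. With no library left out, DKC1, FBL and GNL2 had the smallest p-values of this test.

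The 4 exons printed above show this along single transcripts. NCL exon 10 had 3.2 and 2.5 CPM in CASC3 without CHX, from few counts, and 183.1 and 310.7 with it. Its log2 fold change was 6.48 ± 1.06 (adjusted p = 5.98e-07), a size that rests on those few counts. In RNPS1 it had 17.4 and 7.0 CPM without and 36.8 and 40.6 with CHX, and in RNA-seq 12.2 and 13.5, so the untreated crosslinked CASC3 libraries stood lowest of these 10. The native libraries, also without CHX, stood higher, with 42.8 CPM in CASC3-EIF4A3, 16.4 in MAGOH-CASC3 and 12.8 to 48.4 over all 5. NCL exon 1 had 28.6 and 13.9 CPM without and 12.4 and 13.1 with CHX in CASC3 (-0.65 ± 0.84, not called). All 8 exons of NCL that rose lay from exon 5 to exon 14. NOL11 exon 17 had 2 and 0 counts in the untreated CASC3 libraries and 625 and 536 with CHX (77.6 and 80.0 CPM), and 12 exons of NOL11 rose, from exon 5 to exon 18.

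FBL and NOP56, whose transcript totals were not called with CHX, had exons that fell. FBL exon 2 had 53.0 and 156.2 CPM in CASC3 without CHX and 2.7 and 1.5 with it, a log2 fold change of -5.64 ± 0.98. FBL exons 1 and 3 also fell, with -4.02 ± 0.91 and -4.35 ± 0.92, while exon 8 had 49.8 and 51.6 CPM without and 102.0 and 100.4 with CHX (1.03 ± 0.80, not called). NOP56 exons 1 and 2 fell too, with -3.94 and -3.14. NOP56 exon 10 had 430.1 and 530.2 CPM in CASC3 without CHX, 296.0 and 279.2 with it, and 105.4 and 78.2 in untreated RNPS1. Of the 674 member exons 0 were called between untreated CASC3 and RNPS1, where 0.286% of all exons were. An unadjusted p under 0.05 was found for 26 member exons and for 7661 of all 104449 exons. NOP56 exon 9 came nearest, at 243.7 and 312.3 against 45.5 and 23.9 CPM (log2 difference 3.15 ± 0.83, adjusted p = 0.0540). NOP56 exons 2 and 8, by contrast, stood at -0.47 and -0.91.

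**Figure D5:**
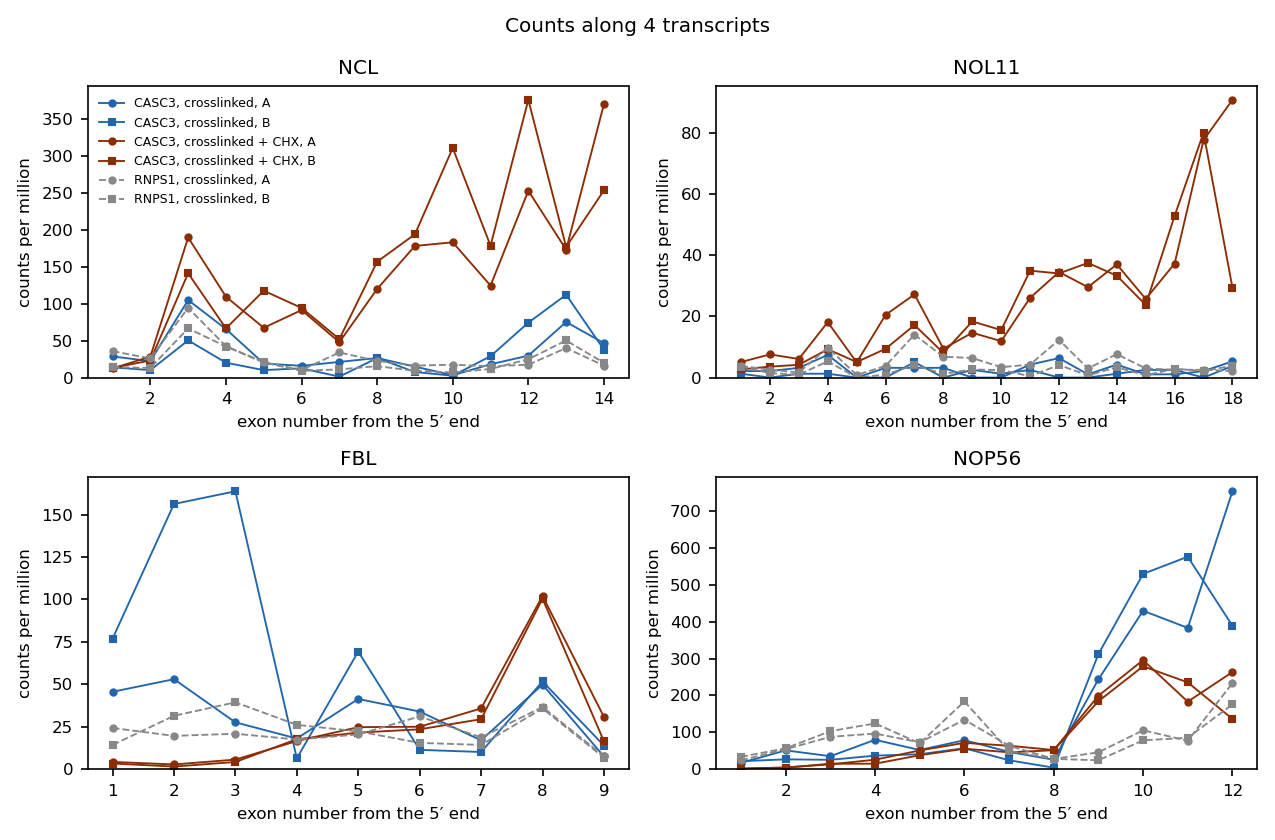
Normalised read counts (CPM, y axis) by exon number from the 5′ end (x axis) for NCL, NOL11, FBL and NOP56, with 1 line for each CASC3 library without and with cycloheximide (CHX) and each untreated RNPS1 library. NCL exon 10 rises from 3.2 and 2.5 to 183.1 and 310.7, and FBL exon 2 falls from 53.0 and 156.2 to 2.7 and 1.5.

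The genes' promoters shared a short sequence more often than promoters at large. In RefSeq windows of 250 bases before to 50 bases after the gene start on GRCh38.p14, 38 of the 45 members were matched, and CACGTG, an E-box that is its own reverse complement and is bound by MYC and related factors, occurred in 13 of them (34.2%). It occurred in 29 of 94 windows of the other ribosome biogenesis genes (30.9%) and in 2030 of 27305 windows of all genes (7.43%). A match is a description of letters and not of binding, and no binding of these promoters was measured here. Of the 13 members with the sequence 9 rose with CHX in CASC3 footprints, and of the 25 without it 15 did, among them DNTTIP2, NUFIP1 and NOL11. The windows of UTP18, UTP20 and TRMT6, chosen as examples of the sequence, are printed from 100 bases before to 10 bases after the gene start on the gene's strand, with CACGTG in capitals. They lie at chr17:51260446-51260555 (plus strand), chr12:101280005-101280114 (plus strand) and chr20:5950524-5950633 (minus strand). NCL and NOP56 had none in their windows.
UTP18: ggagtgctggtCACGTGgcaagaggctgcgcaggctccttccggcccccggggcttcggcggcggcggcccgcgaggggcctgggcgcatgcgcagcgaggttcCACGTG
UTP20: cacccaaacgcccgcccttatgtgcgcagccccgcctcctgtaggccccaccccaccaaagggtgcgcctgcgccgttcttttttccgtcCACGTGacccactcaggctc
TRMT6: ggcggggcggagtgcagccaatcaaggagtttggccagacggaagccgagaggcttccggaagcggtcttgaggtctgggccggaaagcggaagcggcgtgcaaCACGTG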

How the data were processed

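RNA in EJC footprints and RNA-seq of HEK293 cells was given as counts per exon and per transcript for 15 libraries, values the authors deposited as whole numbers and used here as they stand. The tools named in the submitters' processing notes are cutadapt 1.16, TopHat2 2.1.1 and bedtools, with hg38 as the genome build. How features were annotated and counted is not given in the sources used here. Transcript counts equalled the sum of their exon counts for all 45 members, 3 of the 733 member exons share a position with another exon, and intervals cover counting error only, since the tables hold PCR reads without molecular identifiers.

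Tests used edgeR 4.0.16 in R 4.3.3 (quasi-likelihood, TMM, filterByExpr with a minimum count of 10, Benjamini-Hochberg over all features, threshold 0.05), on the 8 crosslinked libraries, or on 6 for RNA-seq. Standard errors are the absolute log2 fold change over the square root of F. Exon use was tested with diffSpliceDGE. Alternatives were DESeq2 1.42.0 (size factors, Wald test), no filter, each replicate left out, a replicate block, fewer libraries, and, added after the data were seen, equal depth. The exact permutation test was run in Python 3.11.15 with scipy 1.17.1, numpy 2.4.6 and pandas 2.3.3, and matplotlib 3.10.9 drew the plots. Fits were tested on simulated data. The members and lists were chosen with earlier results of these data known. Genes named in a comparison were up to 12 called members with the smallest p and, always, NCL, NPM1, FBL, RRS1 and UTP3, in native ratios the 3 highest and lowest with at least 50 counts, and others where their roles or exons are described, chosen after their values were seen.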

Additional observations from a re-analysis of the deposited data

How the results depend on the processing

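With 2 libraries a group, single libraries decide many calls, among the members and over all transcripts alike. In each transcript comparison that involves CHX, the highest member count below came with more calls over all transcripts than with no library left out. The rise in calls was therefore not particular to these genes. Leaving out each library in turn gave 0 members called for CASC3 against RNPS1 without CHX, 0 to 25 with CHX, 4 to 35 for CHX in CASC3, 0 to 9 for CHX in RNPS1, 0 to 21 for the interaction, 14 to 25 for CASC3 against RNA-seq and 17 to 29 for RNPS1 against RNA-seq. The last-exon difference ran from -15.6 to -14.2 points, with exact permutation p-values of 0.0556 to 0.222, the smallest each allows, and the median over members gave -14.0 (p = 0.0889). Member exons called ran from 0 to 13 without CHX and from 11 to 353 for CHX, and members with changed exon use from 0 to 28. With CHX, CASC3 against RNPS1 gave 0 members with only the 4 libraries compared and 5 at equal depth, instead of 13. CHX in RNPS1 gave 2 members with no filter and 2 with the DESeq2 Wald test, where 145 of 26031 and 125 of 9307 transcripts were called. The interaction gave 5 and 2, where 459 of 26031 and 378 of 12911 transcripts were called. Exons called without CHX numbered 1 with DESeq2 size factors and 1 with the replicate block, and CHX exons 14 among those averaging 10 counts in every group. The cause of these changes was not tested. For CHX in CASC3, DESeq2 size factors moved the median of all transcripts from 0.06 to -0.05 and that of the members from 1.68 to 1.58, with 26 members called. Of single genes, RRS1 in CASC3 against RNA-seq turned from -0.18 to 0.007781 with no filter, and with a library left out ranged from -0.4503 to 0.1054. FBL ranged from -1.162 to 0.03112 for CHX in CASC3 and from -0.6785 to 0.5694 for the interaction, and NPM1 from -0.07681 to 0.6158 for CHX in RNPS1. Native ratios above 0 went from 28 to 23 of 45 members without centring, as the share of all transcripts above 0 went from 49.9% to 41.2%.

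The letters A and B do not pair the libraries by the labels, and their A minus B differences, as a hint from the data, correlated in some pairs of groups only: 0.318 for untreated CASC3 and RNPS1 (0.369 in the fit with RNA-seq), 0.285 for RNPS1 without and with CHX, 0.176 for CASC3 and RNPS1 with CHX, 0.125 and 0.108 across both, but 0.0281 for CASC3 without and with CHX and 0.00497 and -0.00394 against RNA-seq. The replicate block gave 31 members instead of 29 for CHX in CASC3, where 5375 instead of 4551 of all 14297 transcripts were called. For CASC3 against RNPS1 with CHX it gave 17 instead of 13, 16 higher and 1 lower, and 3179 instead of 2017 of all. Against RNA-seq it gave 27 instead of 24 and 29 instead of 27, and 6945 instead of 6329 and 8175 instead of 7637 of all 12379. The other 3 transcript comparisons gave 0 members. For CHX 183 member exons instead of 170 were called, and 19415 instead of 19337 of all. Changed exon use was called for 21 members instead of 18, and for 4052 instead of 3795 of all transcripts.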
